A study of Oryza sativa Japonica Group with 3 samples.

Results

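Abscisic acid is the plant hormone of drought and salt stress, and it also restrains root growth. This account follows 8 rice genes of its synthesis, breakdown and signalling chain, out of 35664 genes in the deposited table, in root tip RNA. The genes were chosen by identifier, with no expression value in the rule, though earlier results of these data were known. They are the epoxycarotenoid dioxygenase NCED3, the hydroxylase ABA8ox1, a receptor of the PYL family, the kinases SAPK8, SAPK9 and SAPK10, and the transcription factors ABI5 and bZIP23. All 8 were found in the table.

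RNA was sequenced from the terminal 1 cm of roots of rice seedlings (Oryza sativa cv. Nipponbare) at an age of 7 days, as 2 RNA pools with 4 biological replicates each per the series' design text. The poly(A) pool was captured on oligo(dT) from a cleared extract of the line p35S:HF-FLAG-OsRPL18, which carries a tagged ribosomal protein L18 and was grown on full-strength medium per the labels. The nuclear pool came from nuclei of the line p35S:OsNTF2, in which the nuclear envelope carries a tag that takes up biotin, and was grown on medium of 0.5 strength per the labels; its nuclei were captured on streptavidin beads and ribosomal RNA was degraded. All plants were transgenic, their tag was driven by the 35S promoter, their medium held sucrose, and no hormone or stress treatment is named for either pool. RNA pool, plant line, RNA selection and medium strength changed together and cannot be told apart, and the series' design text gives a single medium strength for all. Nuclei of the shoot base, from the line pOSH1:OsNTF1, were not analysed here.

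In the pathway, NCED enzymes cleave an epoxycarotenoid in plastids to give the precursor of the hormone, and this is its rate-limiting step, while hydroxylases of the cytochrome P450 family begin its inactivation. The hormone binds PYL receptors, which then hold clade A protein phosphatases. Kinases of the SnRK2 family, called SAPK in rice, are thereby released to phosphorylate bZIP factors that switch on protective genes such as dehydrins.

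Levels are in RPKM, reads per kilobase of gene scaled to the depth of the library, computed by the authors, so levels of different genes are per length. RPKM is a share of each library, and in these bulk samples fewer cells of a type and less RNA per cell cannot be told apart. Reads on listed genes, recovered from the RPKM steps, numbered 19430872 to 29974184 per poly(A) library and 1073588 to 2290278 per nuclear library. Across genes, Pearson's r of log2(RPKM + 1) was 0.994 to 0.996 between poly(A) libraries, 0.910 to 0.933 between nuclear libraries and 0.769 to 0.820 between pools. The root genes RCc3 (1799 ± 134 RPKM in poly(A) and 698 ± 137 RPKM in nuclear RNA) and LSI1 (214 ± 25.8 and 69.3 ± 15.4 RPKM) were read in every library and called lower in nuclear RNA. Of the other root genes, SHR1 was called higher (7.06 ± 0.473 and 34.4 ± 7.59 RPKM), and LSI2 (88.9 ± 7.40 and 122 ± 39.5 RPKM) and QHB (2.03 ± 0.434 and 1.25 ± 1.83 RPKM, with 0 in at least 1 nuclear library) were not called. The shoot meristem gene OSH1 was listed at 0 in all 8, the leaf gene RBCS was at 0.0705 ± 0.0866 RPKM in poly(A) and 0 in nuclear RNA, and CAB1R, also a leaf gene, was at 3.23 ± 0.748 and 5.78 ± 2.61 RPKM (SD, n = 4). Their part in the results was not tested.

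Of the 8 genes, 7 passed the filter on low values (a mean of at least 1 RPKM in either pool). NCED3, ABA8ox1, the PYL receptor and bZIP23 were higher in nuclear RNA, SAPK8 was lower, and SAPK9 and SAPK10 did not pass the test, which was limma on log2(RPKM + 1) at an adjusted p under 0.05. ABI5 lay below the filter. Among all 26928 genes tested, 33.1% were called higher and 30.0% lower in nuclear RNA, so a call as such is common. Every member called also had its 4 nuclear libraries wholly above or wholly below the 4 poly(A) libraries, as did 31.7% (above) and 29.4% (below) of all tested genes. The median log2 difference, nuclear minus poly(A), was 0.84 over the 7 tested members and 0.08 over all tested genes.

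**Figure D1:**
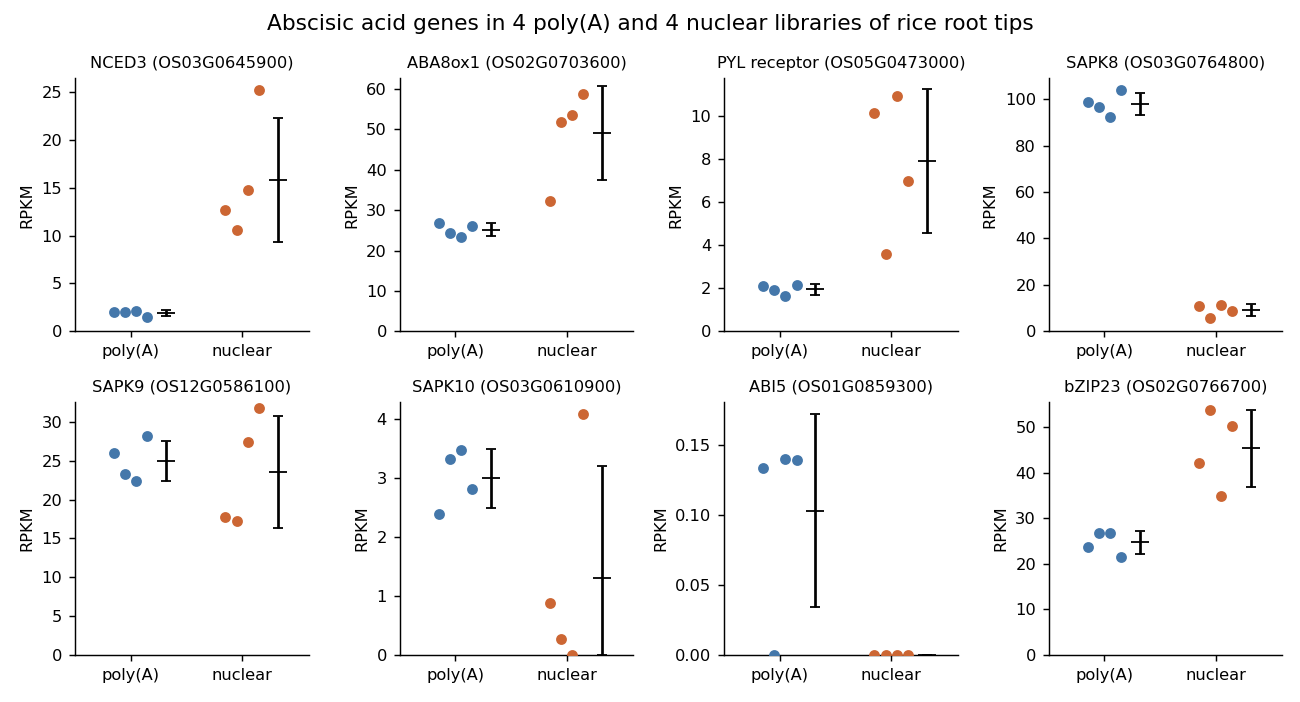
RPKM (linear axis from 0, a separate scale per panel) of the 8 genes in each poly(A) library (blue) and nuclear library (orange), in the order of replicates 1 to 4, with the mean and SD (n = 4) in black; SD bars are drawn no lower than 0. The nuclear points of NCED3, ABA8ox1, the PYL receptor and bZIP23 lie above all poly(A) points and those of SAPK8 below them.

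NCED3 (OS03G0645900), the synthesis enzyme, was read at 1.99, 2.02, 2.17 and 1.45 RPKM in poly(A) replicates 1 to 4 and at 12.7, 10.6, 14.8 and 25.3 RPKM in nuclear replicates 1 to 4. Even the lowest nuclear library was several times the highest poly(A) library, and nuclear replicate 4 stood above the other nuclear libraries. The means were 1.91 ± 0.314 and 15.8 ± 6.52 RPKM (SD, n = 4), a log2 difference of 2.47 ± 0.25 (SE), or 5.54-fold on the log2(RPKM + 1) scale, with a limma adjusted p of 4.51e-05. The ratio of the mean RPKM was 8.30, since adding 1 RPKM compresses the change of a gene this low in poly(A) RNA. Of all tested genes, 96.6% had a smaller or more negative difference. The values rest on 81 to 128 reads per poly(A) library and 37 to 56 reads per nuclear library, over a recovered gene length of 2060 nt. The table itself gives this identifier the symbol NCED1, a symbol it also gives to OS02G0704000, and gives NCED3 to OS07G0154100; the naming here follows the identifier.

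ABA8ox1 (OS02G0703600), an abscisic acid hydroxylase that starts the breakdown of the hormone, was read at 26.8, 24.4, 23.3 and 26.2 RPKM in poly(A) replicates 1 to 4 and at 32.3, 51.9, 53.6 and 58.8 RPKM in nuclear replicates 1 to 4. The poly(A) libraries lay close together, and nuclear replicate 1 lay nearest to them, still above all 4. The means of 25.2 ± 1.62 and 49.1 ± 11.6 RPKM gave a log2 difference of 0.91 ± 0.20 (SE), 1.87-fold, with a limma adjusted p of 0.00355. A difference of this size is not rare, since 25.8% of tested genes had a larger one. In poly(A) RNA ABA8ox1 stood far above NCED3 in every library. NCED3 was at 0.0554 to 0.0931 times the RPKM of ABA8ox1 there, against 0.204 to 0.430 times in nuclear libraries. The log2 ratio of NCED3 to ABA8ox1 was -3.74 ± 0.32 in poly(A) and -1.68 ± 0.49 in nuclear RNA (SD, n = 4), a difference of 2.06 with a two-sided exact permutation p of 0.0286 (0.0286 after Benjamini-Hochberg adjustment over 2 ratios), the smallest that 4 against 4 libraries allow. All 4 nuclear ratios exceeded all 4 poly(A) ratios, and both genes nonetheless remained in the same order within each library.

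The PYL receptor (OS05G0473000) is described in the table by its fold, as a cyclase/dehydrase family protein; PYL receptors bind the hormone in a pocket of this fold. It was read at 2.09, 1.89, 1.62 and 2.16 RPKM in poly(A) replicates 1 to 4 and at 10.1, 3.57, 10.9 and 6.98 RPKM in nuclear replicates 1 to 4. Nuclear libraries spread about 3 times from replicate 2 to replicate 3, and the lowest still exceeded every poly(A) library. The means were 1.94 ± 0.242 and 7.90 ± 3.35 RPKM, a log2 difference of 1.51 ± 0.29 (SE), 2.84-fold on the log2(RPKM + 1) scale, with a limma adjusted p of 0.00194. The nuclear values rest on 11 to 21 reads per library and the poly(A) values on 54 to 92, so the receptor is among the least deeply read of the genes that passed the test.

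The largest difference of the set was in a kinase. SAPK8 (OS03G0764800), SAPK9 (OS12G0586100) and SAPK10 (OS03G0610900) form the group of rice SnRK2 kinases that the hormone activates. SAPK8 was read at 98.8, 96.7, 92.4 and 104 RPKM in poly(A) replicates 1 to 4 and at 11.0, 5.66, 11.2 and 8.85 RPKM in nuclear replicates 1 to 4. The pools lay far apart, with every poly(A) library above every nuclear library. The means were 98.0 ± 4.88 and 9.18 ± 2.58 RPKM, a log2 difference of -3.32 ± 0.20 (SE), 9.99-fold lower in nuclear RNA, with a limma adjusted p of 3.34e-06. Only 1.21% of tested genes had a more negative difference. The nuclear values rest on 11 to 18 reads per library, against 2174 to 3464 reads per poly(A) library.

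SAPK9 was read at 26.0, 23.3, 22.4 and 28.2 RPKM in poly(A) replicates 1 to 4 and at 17.7, 17.3, 27.4 and 31.8 RPKM in nuclear replicates 1 to 4. The pools overlapped, with 2 nuclear libraries below all poly(A) libraries and 1 above them. The means were 25.0 ± 2.61 and 23.5 ± 7.20 RPKM, and the log2 difference of -0.12 ± 0.22 (SE) had a limma adjusted p of 0.638 and a 95% confidence interval from -0.62 to 0.37; its sign turned, to 0.13 and 0.17, when libraries were scaled to an equal sum of RPKM with all genes or without the 100 highest, and to 0.0029 without nuclear replicate 2. With voom on recovered reads the difference was -0.46 with an adjusted p of 0.0556. The confidence interval leaves room for a moderate difference either way, and no direction is given.

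SAPK10 was read at 2.38, 3.32, 3.48 and 2.81 RPKM in poly(A) replicates 1 to 4 and at 0.888, 0.273, 0 and 4.08 RPKM in nuclear replicates 1 to 4. Nuclear replicate 4 exceeded all poly(A) libraries and the other nuclear libraries lay below them. The nuclear values come from 2, 1, 0 and 7 reads, 10 in all, against 505 reads in poly(A) libraries. The log2 difference was -1.09 ± 0.46 (SE) with a limma adjusted p of 0.0650. The call and the size depend on the setting. Without nuclear replicate 4, which held 7 of the 10 reads, the difference was -1.57 with an adjusted p of 0.000604. With all libraries, SAPK10 was also called lower by limma after quantile normalization (-1.22, adjusted p 0.0326) and median centring (-1.24, 0.0438) and by voom on recovered reads (-2.19, 0.0038), while a pseudocount of 0.1 gave -2.29 with an adjusted p of 0.0868. Summed over each pool, the reads give a poly(A) to nuclear ratio of 2.88 with an exact binomial 95% interval from 1.55 to 6.04, which covers counting error only.

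SAPK8 and SAPK9 stood in opposite order in the pools, and SAPK10 was the lowest of the 3 kinases in all 8 libraries. SAPK8 made up 77.8 ± 0.584% of their summed RPKM in poly(A) RNA and 27.6 ± 7.43% in nuclear RNA, and SAPK9 19.8 ± 1.00% and 69.1 ± 6.40% (SD, n = 4). SAPK10 held 2.40 ± 0.502% and 3.33 ± 4.06%. SAPK8 stood at 3.70 to 4.15 times SAPK9 in poly(A) libraries and at 0.279 to 0.622 times in nuclear libraries, so the order turned in all 4. The log2 ratio of SAPK8 to SAPK9 was 1.98 ± 0.08 in poly(A) and -1.36 ± 0.50 in nuclear RNA, a difference of -3.34 with a two-sided exact permutation p of 0.0286 (0.0286 adjusted over 2 ratios), again the smallest possible. The ratios of SAPK8 or SAPK9 to SAPK10 and of ABI5 to bZIP23 were not tested because libraries at 0 have no log ratio.

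SAPK8 was also the most abundant of the 10 SAPK kinases in poly(A) RNA, at 25.0 ± 0.993% of their summed 393 ± 21.0 RPKM. In nuclear RNA the sum was 131 ± 24.0 RPKM, of which SAPK8 held 7.07 ± 2.07% and SAPK9 17.7 ± 2.39%. SAPK4 (OS01G0869900), a kinase of another branch that responds to osmotic stress, went from 81.4 ± 7.06 to 10.6 ± 5.63 RPKM (log2 difference -2.94 ± 0.30) and SAPK7 (OS04G0432000) from 46.2 ± 3.17 to 31.8 ± 9.69 RPKM (-0.56 ± 0.20). Of 11 SnRK2 genes listed, all tested, 6 (54.5%) were lower in nuclear RNA, none was higher and 5 were not called. Over all tested genes, 30.0% were lower and 33.1% higher. The median log2 difference of the 11 was -1.22, against 0.08 over all tested genes. Without the members, 5 of 8 (62.5%) were lower. The 11 include OS05G0433100, similar to SAPK4 and named after its value was seen. It passed the filter only by its nuclear mean of 1.20 RPKM, from 7 reads, and was not called. SAPK8 had the largest difference of the 11, although its paralogue SAPK9 was not called. How reads matching several related genes were counted is not given in the sources used here.

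**Figure D2:**
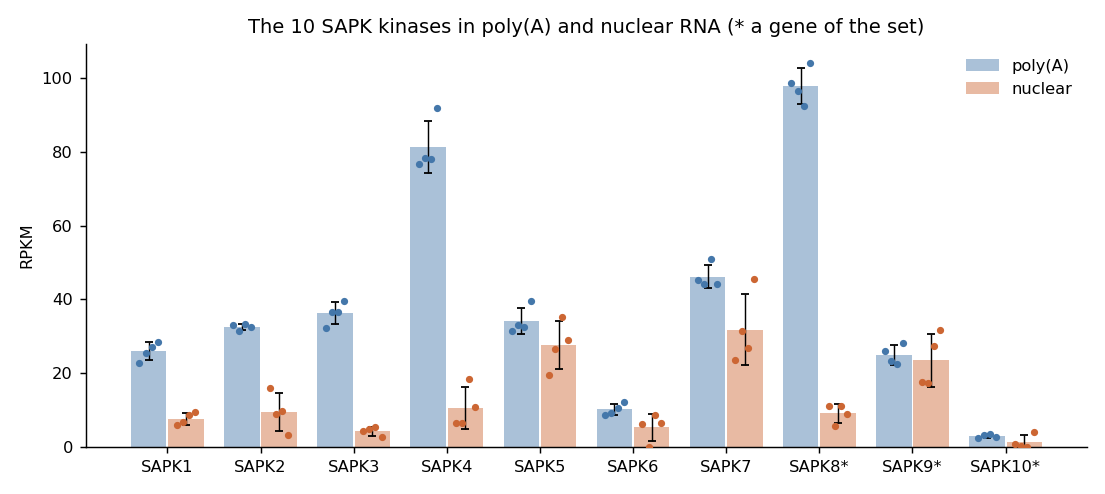
RPKM (linear axis) of the 10 SAPK kinases in poly(A) RNA (blue) and nuclear RNA (orange); bars are means, error bars SD (n = 4, drawn no lower than 0), points single libraries and stars mark the 3 kinases of the set. SAPK8 is the tallest poly(A) bar at 98.0 RPKM and stands at 9.18 RPKM in nuclear RNA, whereas the SAPK9 bars, 25.0 and 23.5 RPKM, nearly match.

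ABI5 (OS01G0859300), a bZIP factor that in Arabidopsis arrests germination and early seedling growth when the hormone is present, was barely read. It was at 0.133, 0, 0.140 and 0.139 RPKM in poly(A) replicates 1 to 4, from 5, 0, 5 and 5 reads, and at 0 in all 4 nuclear libraries. At the poly(A) level, 0.855 reads would have been counted in the 4 nuclear libraries together, and a count of 0 allows up to 0.395 RPKM (3 reads over the pool), more than the pooled poly(A) level of 0.113 RPKM. No difference was detectable at this depth and no fold is given.

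bZIP23 (OS02G0766700), a bZIP factor of rice that binds hormone response elements and promotes drought tolerance, was by contrast among the more abundant members. It was read at 23.8, 26.8, 26.9 and 21.5 RPKM in poly(A) replicates 1 to 4 and at 42.2, 53.9, 35.0 and 50.4 RPKM in nuclear replicates 1 to 4. All nuclear libraries exceeded all poly(A) libraries. The means were 24.7 ± 2.58 and 45.4 ± 8.49 RPKM, a log2 difference of 0.84 ± 0.17 (SE), 1.79-fold, with a limma adjusted p of 0.00246. This is the middle value of the 7 tested members, and 72.2% of tested genes had a lower one.

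**Figure D3:**
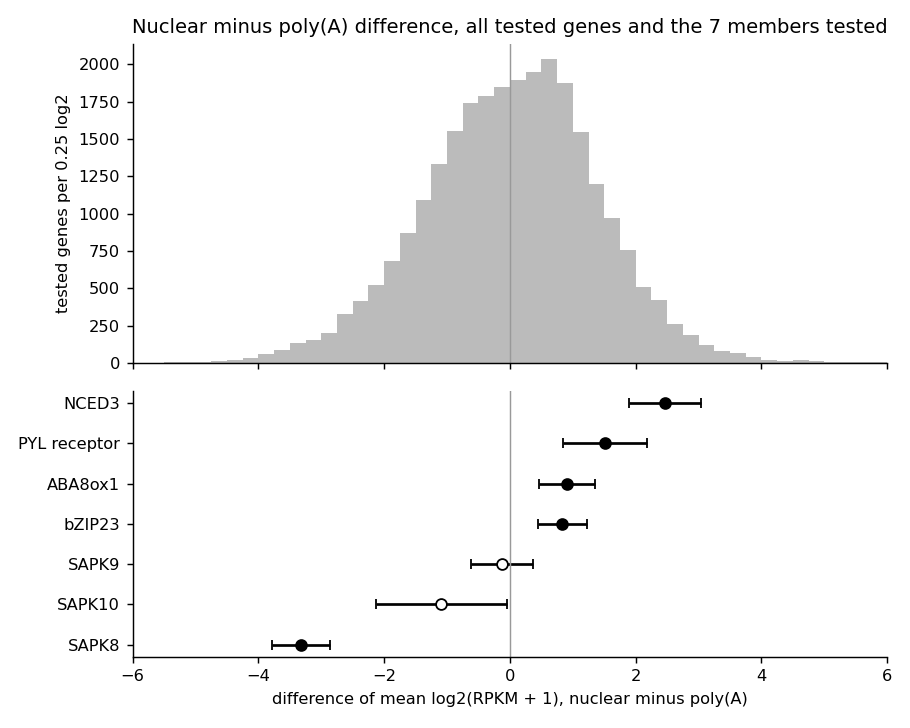
Top, number of tested genes per step of log2 difference (nuclear minus poly(A), on log2(RPKM + 1)) over 26928 genes; bottom, the same difference for the 7 tested members with 95% confidence intervals, filled where the limma adjusted p is under 0.05. NCED3 at 2.47 and SAPK8 at -3.32 lie toward opposite tails, and ABA8ox1 at 0.91 and bZIP23 at 0.84 lie within the bulk.

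Ordered by level, poly(A) RNA had SAPK8 alone at the top and then ABA8ox1, SAPK9 and bZIP23, whose ranges overlapped between 21.5 and 28.2 RPKM. SAPK10 followed, clear of both neighbours in the order, then the PYL receptor and NCED3 with overlapping ranges, and ABI5 last. In nuclear RNA the order began with ABA8ox1 and bZIP23, which overlapped, and went on with SAPK9, NCED3, SAPK8, the PYL receptor, SAPK10 and ABI5. From SAPK9 downward each nuclear range overlapped the next, although within a library SAPK9 exceeded NCED3, NCED3 exceeded SAPK8, SAPK8 exceeded the PYL receptor, and the receptor exceeded SAPK10 in 4 of 4 nuclear libraries each. SAPK8 and the receptor had 61 and 65 nuclear reads in all, so their order in RPKM rests on their recovered lengths of 1156 and 1466 nt. Of the 7 members above 0 in nuclear RNA, 4 (NCED3, ABA8ox1, SAPK9 and SAPK10) had their highest nuclear value in replicate 4, the least deeply read library, and 4 had their lowest in replicate 2, the most deeply read; the part of depth in this was not tested.

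Several members had a near copy of their values under the next identifier. OS03G0645966, listed as a hypothetical gene directly after NCED3, was at 1.94 ± 0.396 RPKM in poly(A) and 18.2 ± 7.98 RPKM in nuclear RNA, and its RPKM were 0.930 to 1.18 times those of NCED3 in the 8 libraries. OS02G0703700, a hypothetical protein gene directly after ABA8ox1, was at 27.8 and 56.0 RPKM, or 1.09 to 1.16 times ABA8ox1. OS05G0473101, a hypothetical gene directly after the PYL receptor, was at 2.61 and 11.2 RPKM, or 1.30 to 1.42 times the receptor; the recovered reads of both were equal in all 4 nuclear libraries (21, 12, 21 and 11) and close in poly(A) RNA (288 against 305), over lengths of 1030 and 1466 nt. Likewise ABA8ox1 and its neighbour had 6399 and 6035 poly(A) reads and 707 and 690 nuclear reads, and NCED3 and its neighbour 418 and 276, and 183 and 137. Such likeness was uncommon, although these 3 pairs were picked after their values were seen. By Euclidean distance of log2(RPKM + 1) over the 8 libraries, 2.83%, 3.44% and 8.86% of 18653 pairs of tested genes with neighbouring identifiers were as close as these 3 pairs. OS12G0586300, directly after SAPK9, was as near (distance 0.982), but its ratio to SAPK9 varied from 0.792 to 1.68 between libraries. OS01G0859100, shortly before ABI5, was at a distance of 0.669 from it (5.26%), and both genes lay below the filter. The identifiers directly beside SAPK8, SAPK10 and bZIP23 were less alike, at distances of 2.85 to 14.5, with 27.8% or more of those pairs at least as close. The strand setting of the counting is not given in the sources used here, so reads of NCED3, ABA8ox1 and the receptor cannot be told apart from reads of an overlapping or antisense gene, and their levels are uncertain to that degree.

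**Figure D4:**
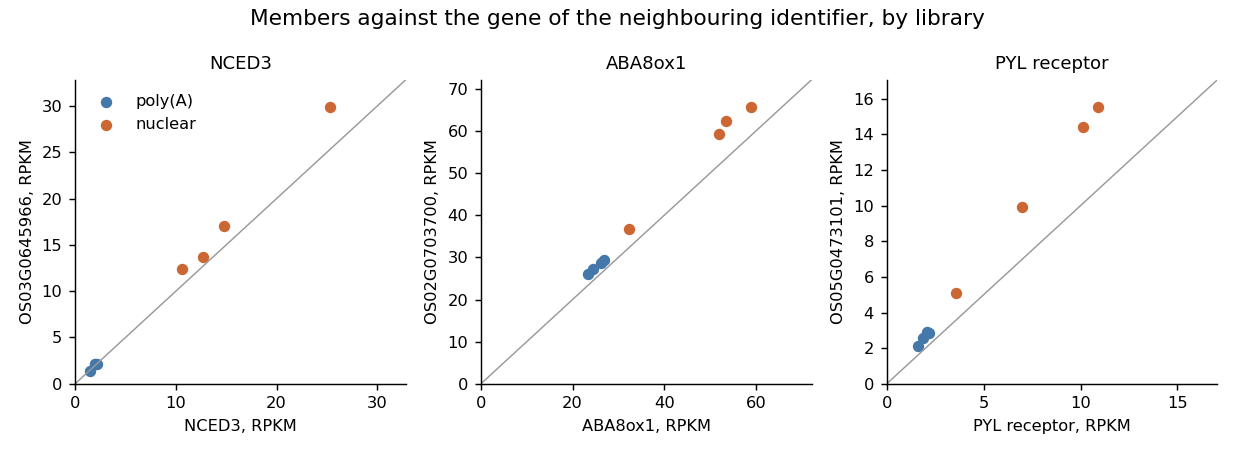
RPKM of the gene with the next identifier (vertical axis) against RPKM of NCED3, ABA8ox1 and the PYL receptor (horizontal axis) in each poly(A) (blue) and nuclear (orange) library; the grey line marks equal values. Points of NCED3 and its neighbour follow the line at 0.930 to 1.18 times, and those of the receptor's neighbour run above it at 1.30 to 1.42 times.

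The 2 other tested genes with the most similar values over the 8 libraries were sought for each member by the same distance, which reflects level and pool difference alike and is given as a description. For NCED3 these were its neighbour OS03G0645966 (distance 0.398) and the hypothetical protein gene OS06G0548150 (0.526). ABA8ox1 was nearest to the hypothetical protein gene OS07G0479150 (0.336) and to OS08G0517200, similar to an autoinhibited calcium ATPase (0.356), and bZIP23 to OS06G0300300 of the SFT2-like family (0.342) and the transferase gene AT3, OS05G0136900 (0.388). The PYL receptor was nearest to OS05G0529600 (0.567) and to OS12G0262100, which has a HAT dimerisation domain (0.619). SAPK8 had no partner as near, its closest being OS11G0591100 with an NAD(P)-binding domain (0.876) and OS02G0824700, similar to subunit F of the vacuolar ATP synthase (0.905). SAPK9 was nearest to OS06G0714600, with an ADP-ribosylation factor domain (0.414), and OS10G0188100 (0.501), and SAPK10 to OS02G0498300 (0.672) and the kinase-related gene RLCK281, OS09G0570000 (0.918).

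Beyond the 8, the wider list of the pathway held 60 genes by annotation, members included, of which 48 were tested, 13 (27.1%) were higher, 17 (35.4%) were lower and 18 were not called. These shares are near those of all tested genes, 33.1% and 30.0%. Their median log2 difference was -0.20. Without the members, 41 were tested, of which 9 (22.0%) were higher and 16 (39.0%) lower, further from the shares of all tested genes. The median of these 41 was -0.32. The other 2 genes of highest level listed under synthesis were lower in nuclear RNA, where NCED3 was higher. OS06G0670000 is described as similar to the molybdenum cofactor sulfurase, which activates the last enzyme of synthesis. OS09G0560800 is described only by the C-terminal domain of that protein, so its part in synthesis is not given by its description. OS06G0670000 went from 16.4 ± 0.872 to 11.1 ± 1.51 RPKM (log2 difference -0.53 ± 0.14) and OS09G0560800 from 13.4 ± 0.672 to 3.12 ± 2.42 RPKM (-2.10 ± 0.52). Among 9 synthesis genes listed, 6 were tested, with 1 (16.7%) higher, which was NCED3, 3 (50.0%) lower and a median of -0.36. Besides OS09G0560800, another of the 3 lower genes was listed by the C-terminal domain only. The table's own NCED3, OS07G0154100, was at 0.172 ± 0.0902 and 1.72 ± 1.72 RPKM and was not called, and the other 3 NCED genes were not tested.

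Both tested breakdown genes were called higher in nuclear RNA, as were 33.1% of all tested genes, and 2 genes are few for a share. ABA8OX2 (OS08G0472800) went from 11.2 ± 2.44 to 22.1 ± 5.75 RPKM. Its log2 difference of 0.90 ± 0.22 was near the 0.91 of ABA8ox1, and 25.9% of tested genes had a larger one. The remaining hydroxylase gene, ABA8OX3, lay below the filter. Of 7 receptors listed and 5 tested, 2 were higher and 2 lower, 40.0% each, beside 33.1% and 30.0% of all tested genes. OS03G0297600, in the table a protein of the same fold as the PYL receptor, went from 27.6 ± 5.30 to 83.8 ± 24.1 RPKM (1.55 ± 0.23, beside 1.51 for the PYL receptor), whereas OS10G0573400 went from 44.9 ± 2.43 to 24.2 ± 3.40 RPKM (-0.88 ± 0.14), and OS05G0213500, described as the rice orthologue of the receptor, was at 18.8 ± 0.914 and 15.3 ± 4.48 RPKM and was not called. The PYL receptor of the set thus had the lowest poly(A) level of the 5 tested receptors.

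Clade A phosphatases, which the receptors hold back and which in turn keep the kinases inactive, numbered 9 listed and 8 tested. Of these, 6 (75.0%) were higher in nuclear RNA, 1 (12.5%, OS01G0513100, named after its value was seen, at -2.07 ± 0.39) was lower and 1 was not called, beside 33.1% higher and 30.0% lower over all tested genes, with a median log2 difference of 1.09. PP2C1 (OS09G0325700) went from 7.53 ± 0.711 to 48.0 ± 27.4 RPKM (2.38 ± 0.32) and OS01G0846300 from 55.3 ± 6.43 to 107 ± 20.2 RPKM (0.93 ± 0.18), while OS01G0583100 was at 48.3 ± 5.32 and 58.5 ± 11.8 RPKM and was not called. Among bZIP and related factors, 8 of 10 were tested. Of these, 2 (25%) were higher in nuclear RNA and none was lower, beside 33.1% higher and 30.0% lower over all tested genes. Those called were bZIP23 and bZIP62 (OS07G0686100, 2.63 ± 0.120 to 6.16 ± 1.78 RPKM, 0.95 ± 0.18, named after its value was seen). The next most abundant factors, bZIP42 (OS05G0489700) at 13.8 ± 0.729 and 15.1 ± 5.17 RPKM and bZIP12 (OS01G0867300) at 12.4 ± 0.641 and 15.0 ± 2.51 RPKM, were not called, so bZIP23 stood above them in both pools. The 8 tested factors include OS03G0144951, named after its value was seen, which passed the filter only by its nuclear mean. Its 8 nuclear reads all came from nuclear replicate 1, and it was not called.

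Target genes of the pathway, dehydrins and late embryogenesis abundant proteins that protect cells as they lose water, were lower in nuclear RNA where called: of 11 listed, 8 were tested, 5 (62.5%) were lower, none was higher, beside 30.0% and 33.1% of all tested genes, and the median log2 difference was -1.88. DHN1 (OS02G0669100) went from 123 ± 4.68 to 42.4 ± 18.0 RPKM (-1.59 ± 0.25), RAB16D (OS11G0453900) from 58.1 ± 33.4 to 6.93 ± 3.23 RPKM (-2.74 ± 0.52) and LEA3-1 (OS05G0542500) from 42.6 ± 16.9 to 9.06 ± 5.76 RPKM (-2.18 ± 0.41). The RAB16 genes have neighbouring identifiers and related sequences, and reads shared among them cannot be told apart.

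**Figure D5:**
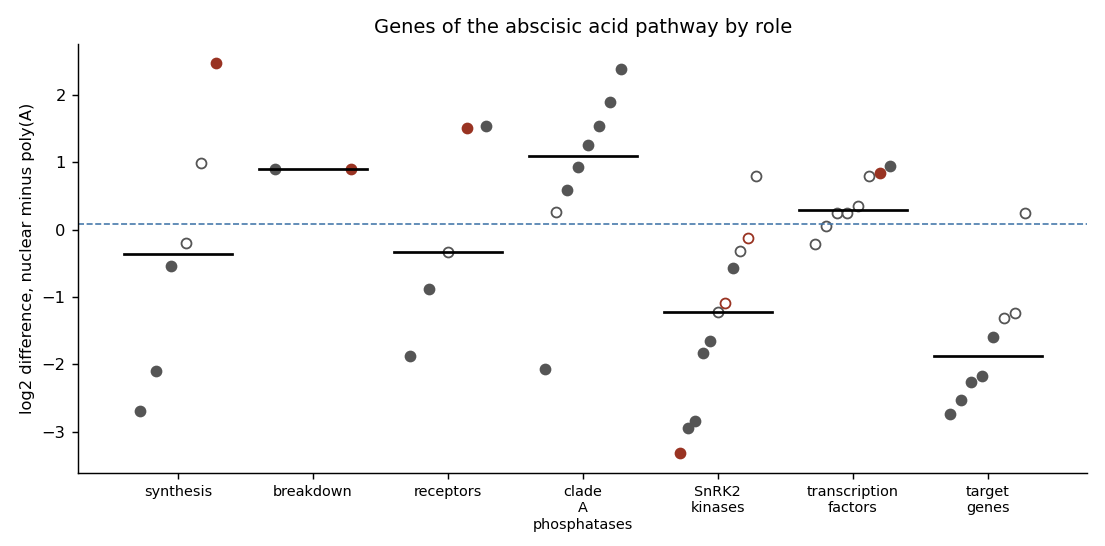
Log2 difference, nuclear minus poly(A), on log2(RPKM + 1), of the 48 tested genes of the wider pathway list by role; points are genes, filled where the limma adjusted p is under 0.05, red for the 8-gene set and grey for others, black bars the median of a role and the dashed line the median of all tested genes (0.08). Phosphatases centre on 1.09, SnRK2 kinases on -1.22 and target genes on -1.88.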

How the data were processed

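RNA sequencing of rice root tips was analysed from the deposited table. RPKM was computed by the authors per gene and library; the submitters' processing notes name TopHat2 2.1.1, CASAVA 1.8, FastQC and the genome build IRGSP-1.0. The annotation release, the counting tool and how it treated strand are not given in the sources used. Of 35694 lines, 29 identifiers recurred with equal values and were counted once, and 2473 genes were at 0 throughout. The authors' pool means were not used. Columns were matched to pools by name.

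Whole reads, depths and lengths were recovered from the RPKM steps: all 33191 genes above 0 came out whole within 0.0001 of a read. Pools were compared with limma 3.58.1 (lmFit, eBayes; R 4.3.3). The test was two-sided on log2(RPKM + 1) and covered 26928 genes that averaged at least 1 RPKM in either pool, adjusted after Benjamini and Hochberg; scripts were tested on simulated data. Of 5 planned ratios between members, those without a 0 were compared by exact permutation in SciPy 1.17.1.

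The members, the gene lists and the tests were chosen with earlier results of these data known, and 9 genes were dropped from the wider list for their descriptions. Named were all members, per role up to 3 tested genes of highest mean RPKM, and for each member its 2 nearest genes; others are marked in the text. The comparison of neighbouring identifiers was added after seeing the data. The reference table matched no member, so positions and sequences were not used here. Alternatives were other pseudocounts, filters and scalings, a length correction, recovered reads, a replicate block and leaving out each library.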

Additional observations from a re-analysis of the deposited data

Results flagged for a closer look

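In a search for single libraries that stand apart from the other 3 of their pool, over 16 groups (8 genes in 2 pools), 1 value was picked out: ABI5 was at 0 RPKM in poly(A) replicate 2, while the other poly(A) libraries were at 0.133 to 0.140 RPKM. The gap took 0.955 of the group's range, above Dixon's critical value for 4 samples. Chance alone picks out about 1 group in 20, and the values rest on 0 and 5 reads. Poly(A) replicate 2 is also the least deeply read library of its pool. Of the 16 groups, that of ABI5 in nuclear RNA was at 0 in all 4 libraries, so it had no range to search.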

How the results depend on the processing

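Over 10 other settings and 8 fits that each leave out a library, NCED3, ABA8ox1, the PYL receptor and bZIP23 were called higher and SAPK8 lower each time, with log2 differences of 2.23 to 2.92, 0.67 to 1.20, 1.28 to 1.86, 0.64 to 1.13 and -3.74 to -3.04. SAPK9 was never called. Its sign turned with an equal sum per library (0.13), the same without the 100 highest genes (0.17) and without nuclear replicate 2 (0.0029). Its difference ranged from -0.46 to 0.17 over the 10 other settings and from -0.28 to 0.0029 when libraries were left out. The lowest value, by voom on recovered reads, had an adjusted p of 0.0556. The cause was not tested. SAPK10 was called, making 2 members lower, under quantile normalization (-1.22, adjusted p 0.0326), median centring (-1.24, 0.0438), voom on recovered reads (-2.19, 0.0038) and without nuclear replicate 4 (-1.57, 0.000604); members called lower ranged from 1 to 2 when libraries were left out. A pseudocount of 0.1 gave SAPK10 -2.29 with no call (adjusted p 0.0868). SAPK10 was not tested at a mean of at least 5 RPKM. Over all genes, 7652 to 10571 were called higher and 6266 to 9923 lower. Equal sums moved the median of all genes from 0.08 to 0.30, and to 0.33 without the 100 highest genes, where 62.8% of calls were higher against 52.5%. With a pseudocount of 1 the ratio differences were 1.56 (NCED3 to ABA8ox1) and -3.20 (SAPK8 to SAPK9), and 1.90 to 2.26 and -3.56 to -3.17 when libraries were left out. Same-numbered libraries of the pools did not deviate together (correlations of -0.048 to 0.0092), so the numbers were not treated as pairs; with the replicate as a block, 8391 genes were called higher and 7628 lower, and the members' calls were 4 and 1. Nuclear reads limit the low members: 10 reads for SAPK10 and 0 for ABI5.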

Other observations

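The target genes varied between libraries of 1 pool far more than the rest of the pathway. Over the 8 tested dehydrin and late embryogenesis abundant genes, the median coefficient of variation in poly(A) RNA was 64.8%, against 6.88% for the 6 tested synthesis genes, 11.3% for 8 phosphatases and 9.25% for 11 SnRK2 kinases. Their summed level was 375, 239, 315 and 186 RPKM in poly(A) replicates 1 to 4 and 66.8, 62.0, 49.7 and 135 RPKM in nuclear replicates 1 to 4. In poly(A) replicate 1, 6 of the 8 had their highest poly(A) value, and in nuclear replicate 4, 7 of the 8 had their highest nuclear value. Reads shared among the RAB16 genes cannot be told apart, so these genes are not separate observations. Nuclear replicate 4, the least deeply read library, held 3 reads each of DHN6 and RAB16B and 10 each of RAB16C and RAB16D, against 96 of DHN1. RAB16D was at 94.1, 46.9, 74.0 and 17.2 RPKM in poly(A) replicates 1 to 4, whereas DHN1 was at 116, 126, 126 and 122 RPKM in the same libraries. The lowest poly(A) value of RAB16D still exceeded its highest nuclear value of 10.9 RPKM. These values were picked out after they were seen and have no test.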
